A study of Mus musculus with 4 samples.

Results

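The cytosolic ribosomal protein genes were followed on 4 two-colour mouse expression arrays made by Agilent. Members were the array's non-control probes whose gene name is Rps or Rpl with a number and at most one letter a, x or y, together with Rplp0, Rplp1, Rplp2 and Rpsa. The rule took 181 of 55681 probes. They stand for 77 of the 35018 gene and transcript names on the array, namely 31 of the small subunit and 46 of the large subunit. The rule uses names and no measured value, but it was set with earlier results of these data known.

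The cells were neural stem/progenitor cells (NSPCs) of Slc:ICR mouse embryos at embryonic day 13.5, grown in neurosphere medium with EGF and basic FGF. The labels give this strain for both genotypes, and the Trp53-heterozygous mice came from a separate source, the RIKEN BioResource Center. The cells were wild-type or Trp53-/-, that is without the gene for the tumour suppressor p53, and 2 arrays were made for each genotype. On every array RNA of cells given 20 μM PJ34, an inhibitor of poly(ADP-ribose) polymerases (PARPs), was labelled with Cy5 and RNA of untreated cells of the same genotype with Cy3. The 2 RNA preparations of a genotype were independent, and the time of exposure before RNA extraction was not given in the sources used here. The wild-type and Trp53-/- arrays had no channel in common, and each array lay on a slide of its own.

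The cytosolic ribosome is built from a small subunit, which reads the messenger RNA, and a large subunit, which joins the amino acids. Its proteins are encoded by single-copy genes with many processed pseudogenes, and their messengers begin with a run of pyrimidines, the terminal oligopyrimidine (TOP) tract, through which mTOR controls their translation. The 5S ribonucleoprotein of Rpl5 and Rpl11, and a number of other free ribosomal proteins, can bind Mdm2 and thereby stabilise p53. Growing progenitors make ribosomes at a high rate, so these messengers are among the most abundant in the cell.

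All 77 genes were tested, each through the brightest of its probes. Of the 181 probes 179 passed the filter on dim spots, and 2 did not, 1 of them a probe of Rpl6. All 77 genes lay among the brightest 5% of the 19637 genes tested and 39 of them among the brightest 1%, and none was saturated. Ratios are log2 of PJ34 over control, so that 1 is a doubling, after loess normalization within each array.

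The check genes behaved differently in the 2 genotypes. Cdkn1a, the p53 target that encodes p21, had log2 ratios of 1.84 and 1.23 on the wild-type arrays and of -0.48 and -0.74 on the Trp53-/- arrays. Its untreated level differed by -2.70 on the log2 scale, Trp53-/- minus wild-type (limma, q = 0.0103). For Trp53 itself the untreated difference was -0.71 (q = 0.0564), and whether its probe lies in the deleted part was not tested. Sex-linked genes differed between the untreated genotypes too. The differences were -2.05 for Ddx3y and -2.59 for Eif2s3y (limma, q = 0.00873 for both) and 1.05 for Xist (q = 0.0648). Trp53-/- replicate 2 stood apart: log2 ratios of the X-inactivation RNA Xist and the Y-linked Ddx3y and Eif2s3y were -3.08, 3.12 and 4.22 there, and between -0.20 and 0.84 on the other 3 arrays, so that the sex-linked genes of its PJ34 and control channels did not match. The astrocyte marker Gfap also stood at 1.62 on that array and between -0.28 and 0.00 on the others. Counts in Trp53-/- cells, save those of cell type markers, and differences between genotypes that passed the test, are given with and without that array. Without it 3.18% of all genes were higher and 3.5% lower in Trp53-/- NSPCs.

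Where the messengers of these genes begin was read from the RefSeq promoter table (build GRCm38.p6), which matched 57 of the 77 genes by symbol (Rps3a as Rps3a1) with 67 promoters. A stretch of C followed by at least 5 pyrimidines lay within 15 bases of the annotated start, on the strand of the gene, in 50.7% of these promoters and in 22.5% of all 32851 promoters. The letters CCGGAAG or their complement CTTCCGG, a match to the core bound by ETS factors, were found on either strand in 37.3% of the 300-base windows of these genes and in 8.86% of all. Both matches overlap where a pyrimidine run ends in CTTCCGG, and a match is a description of letters only. The 30 bases around a start are shown for some of the genes with high or low ratios described below, 5′ to 3′, with the pyrimidine run in capitals.
Rps27 (chr3:90213634-90213663, minus strand): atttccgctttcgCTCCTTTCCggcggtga
Rps24 (chr14:24490663-24490692, plus strand): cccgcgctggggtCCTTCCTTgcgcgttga
Rpl34 (chr3:130730323-130730352, minus strand): CCTTCCTTTTCCTCTTCCggggacggtgct
Rps16 (chr7:28350674-28350703, plus strand): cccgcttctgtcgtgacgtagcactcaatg
Rps18 (chr17:33955651-33955680, minus strand): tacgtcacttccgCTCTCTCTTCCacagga
Rps13 (chr7:116334176-116334205, minus strand): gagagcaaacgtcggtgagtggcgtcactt
Runs were present in Rps27, Rps24 and Rpl34, which had positive ratios, and in Rps18, which had negative ones. No run lay in these windows for Rps16, with positive ratios, or Rps13, with negative ones. A further annotated start of Rps24, not shown, had no run. Among genes with positive ratios that are not shown, Rps12 for example had a run and Rpl24 had none.

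After loess, the ratios of ribosomal protein messengers were small in wild-type NSPCs. Loess removes a shift shared by genes of like brightness, so that such a shift was not tested. Over the 77 genes the log2 ratio ran from -0.24 (Rpl21) to 0.53 (Rps27), with a median of 0.11 against 0.03 over all genes. None passed the study's criteria of p and q below 0.05 with more than a 2-fold change, which 0.504% of all genes passed. With q below 0.05 alone 13 of the 77 genes were higher, or 16.9%, where 13.8% of all genes were. By the same rule 2 of the 77 were lower, where 11.5% of all genes were. In both directions 15 of 77 were called, against 25.3% of all genes. The share higher was thus near that of all genes.

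The gene with the highest ratio was Rps27, a zinc-finger protein of the small subunit. Its log2 ratios were 0.37 and 0.69 on the wild-type arrays, a mean of 0.53 ± 0.101 (SE, n = 2; 1.45-fold, limma, q = 0.00294). Both arrays lay above 0, and replicate 2 was the higher. Its 4 probes gave wild-type ratios from 0.32 to 0.38 on replicate 1 and from 0.61 to 0.69 on replicate 2. Rps14, which lies at the platform of the small subunit, had ratios of 0.29 and 0.76 (q = 0.00767). Rps24 had 0.30 and 0.67 (q = 0.00591), and Rps16 0.26 and 0.50 (q = 0.0102). Rps12, at the beak of the small subunit, had 0.19 and 0.58 (q = 0.0193). In the large subunit Rpl24, which takes part in a bridge between the subunits, had 0.33 and 0.48 (q = 0.0071), and Rpl32 had 0.19 and 0.45 (q = 0.023). All of these lay above 0 on both arrays, and all were higher on replicate 2. Not all probes of these genes gave such ratios. The lowest wild-type mean among a gene's kept probes was 0.01 for Rps24, 0.03 for Rps16 and 0.02 for Rpl24. It was 0.28 for Rps12 and 0.47 for Rps27.

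At the other end of the family Rpl21 had ratios of -0.22 and -0.26 (q = 0.0436), and Rps18, a protein of the head of the small subunit, had -0.29 and -0.18 (q = 0.048). The next lowest means were those of Rps13 at -0.21, Rpl22 at -0.19 and Rpl3 at -0.14, and none of these 3 passed the test. For Rpl21 the choice of probe decided the sign, since the other 2 probes had wild-type means of 0.33 and 0.19 and the mean over its probes was 0.09. For Rps18 the other kept probe had a wild-type mean of -0.02.

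The wild-type calls did not rest on both arrays alike, since ratios were mostly higher on replicate 2. The median over the 77 genes was 0.03 on replicate 1 and 0.15 on replicate 2, and 60 genes were higher on replicate 2. With replicate 1 alone standing for wild-type no member was called, where 7.98% of all genes were higher and 6.73% lower. With replicate 2 alone 14 were higher and none lower, where 8% of all genes were higher and 6.02% lower.

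**Figure D1:**
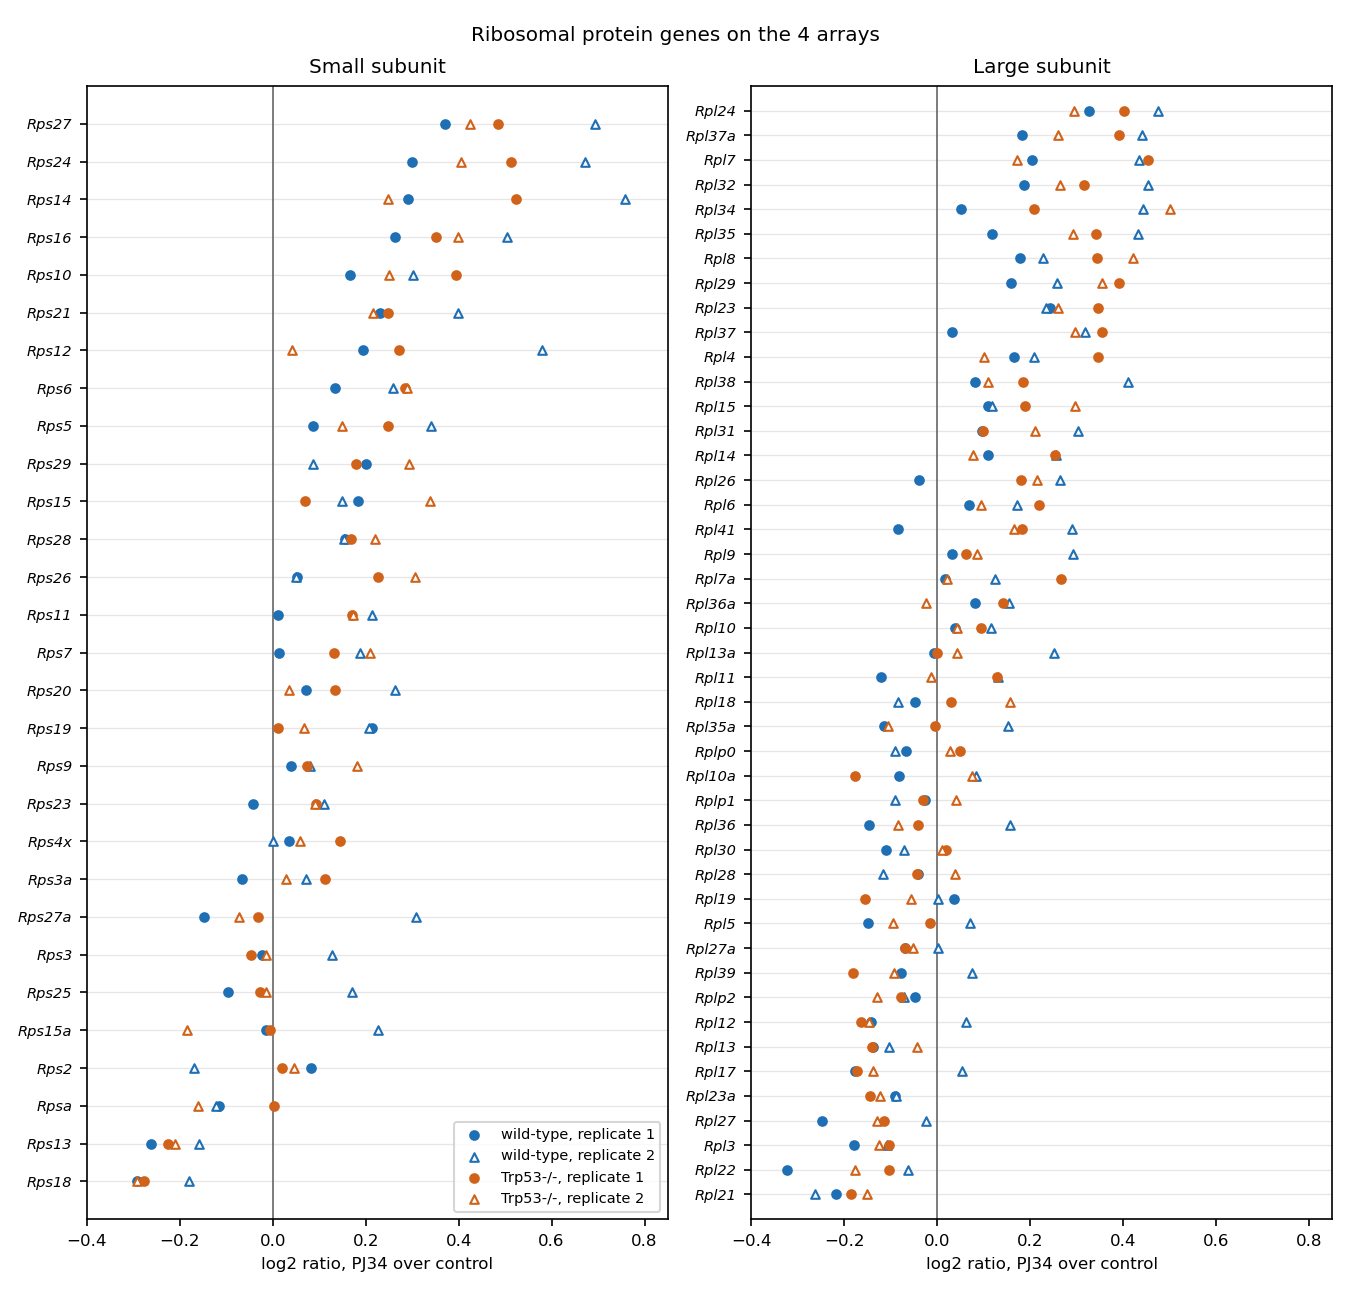
Log2 ratio of PJ34 over control for 74 of the 77 ribosomal protein genes on each array, the small subunit on the left and the large subunit on the right, sorted by the mean over the 4 arrays. Filled circles are replicate 1 and open triangles replicate 2 of wild-type (blue) and Trp53-/- (orange) NSPCs; the same genes lead and trail in both genotypes, between -0.32 and 0.76.

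Trp53-/- NSPCs gave ratios of the same size. They ran from -0.28 (Rps18) to 0.46 (Rps24), with a median of 0.09 against 0.03 over all genes. No member passed the study's criteria, which 0.372% of all genes passed. With q below 0.05 alone 19 genes were higher, or 24.7%, where 12.9% of all genes were, and 1 was lower, where 10.7% of all genes were. In both directions 20 of 77 were called, against 23.6% of all genes. Without replicate 2 no call among the 77 was left, and without replicate 1 few were. Calls over all genes became fewer as well, so that these counts needed both arrays. In those fits the lone array of a genotype was taken to vary like the arrays of the other.

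Rps24 had ratios of 0.51 and 0.41 on the Trp53-/- arrays (mean 0.46 ± 0.106, SE; q = 0.0085). Rps27 had 0.48 and 0.42 (q = 0.00721), Rps16 0.35 and 0.40 (q = 0.0123) and Rps14 0.52 and 0.25 (q = 0.028). Of the large subunit, Rpl8, which lies close to the peptidyl transferase centre, had 0.35 and 0.42 (q = 0.0083), Rpl29 0.39 and 0.35 (q = 0.00943) and Rpl34 0.21 and 0.50 (q = 0.0317). Between kept probes of a gene the Trp53-/- means ranged over 0.41 for Rps24, 0.39 for Rpl29 and 0.25 for Rps16 and Rpl8. The range was 0.08 for Rps27 and 0.07 for Rpl34. Rps18 was the gene called lower, with -0.28 and -0.29 (q = 0.027). Rps13, Rpl21, Rpl12 and Rpl17 had the next lowest means, from -0.22 to -0.16, and did not pass the test.

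The order of the genes was much alike on the 4 arrays. Across the 77 genes Pearson's r between the wild-type and the Trp53-/- means was 0.864 (Spearman's rho 0.856), and between single arrays rho ran from 0.647 to 0.834. These values are across genes, which are not independent replicates, and all arrays share the probes and the dye orientation. Of the 77 genes 40 lay above 0 on all 4 arrays and 9 below. The genes called higher in both genotypes, 11 of 13 in wild-type and 11 of 19 in Trp53-/-, included Rpl7, Rpl23, Rpl24, Rpl32, Rpl35, Rpl37a, Rps14, Rps16, Rps24 and Rps27. Because PJ34 samples always carried Cy5, a dye effect of a probe and an effect of PJ34 cannot be told apart within a genotype.

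Brightness moved with these ratios. Among genes that are not members the brightest 1% had median ratios of 0.10 and 0.21 on the wild-type arrays and of 0.18 and 0.15 on the Trp53-/- arrays, while the 39 members of that class had 0.08, 0.26, 0.22 and 0.17. The 38 members in the next class, the 95th to 99th percentile, had medians of -0.02, 0.08, 0.02 and 0.02. With each array only centred on its median, in place of loess, all 77 genes were called higher in both genotypes, as 67.7% of all genes were in wild-type and 74.6% in Trp53-/-. The members' medians were then 0.47 and 0.64 above that of all genes. With the scanner software's own log ratios they were 0.03 and 0.02 below it and no member was called. Whether the family lay above or below all genes thus changed with the normalization, and the part of brightness in the ratios was not tested.

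**Figure D2:**
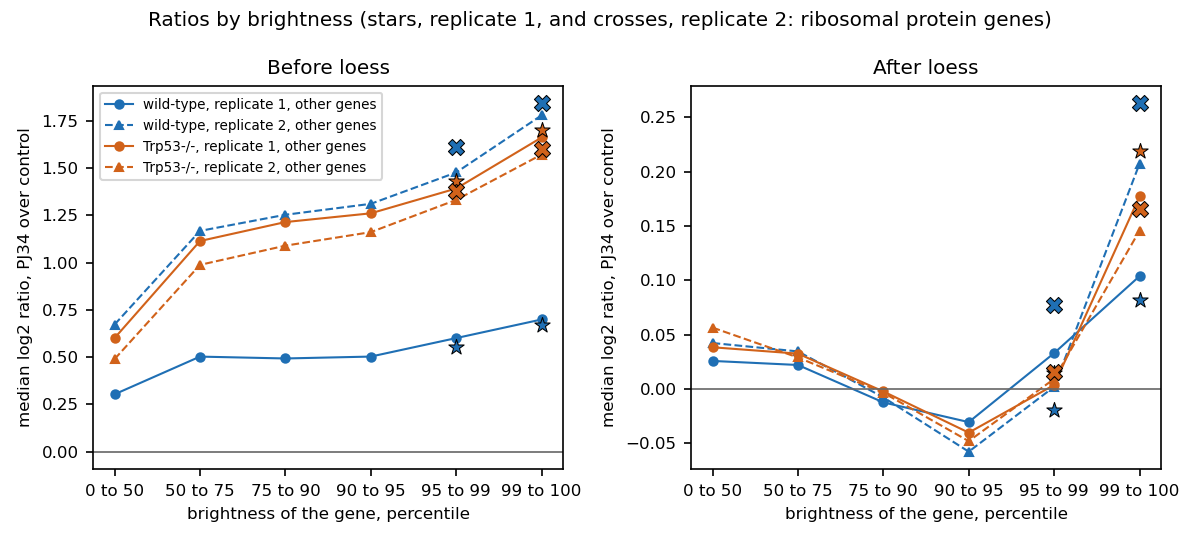
Median log2 ratio of PJ34 over control by brightness class on each array, before loess (left) and after it (right). Lines are genes that are not members, and stars and crosses the ribosomal protein genes; after loess the brightest 1% of other genes had medians of 0.10 to 0.21.

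The comparison free of a dye effect of the probe is that of the genotypes' responses. No ribosomal protein gene passed the test for a different response in wild-type and Trp53-/- NSPCs. In limma 0 of 77 had q below 0.05, where 1.79% of all genes did, and 0 of 77 had an unadjusted p below 0.05. The differences, wild-type minus Trp53-/-, ran from -0.22 (Rps26) to 0.23 (Rps12), with a median of 0.01. For 74 of the 77 genes the 95% interval lay within 0.5 log2 units on either side of 0, and for all 77 within 1. The widest bounds were -0.49 for Rps26 and 0.58 for Rps12. The SD of the difference over members was 0.0926, against 0.252 over the 905 other genes of the same brightest 5%.

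Rps12 had 0.19 and 0.58 in wild-type and 0.27 and 0.04 in Trp53-/-, and the ranges of the genotypes overlapped. Rps15a, Rps19 and Rps14 had differences of 0.20, 0.17 and 0.14. Rps26, which contacts the messenger at its exit from the small subunit, had 0.05 and 0.05 in wild-type and 0.23 and 0.31 in Trp53-/-, so that its arrays did not overlap, but the difference did not pass (q = 0.346). Rpl8, Rpl29, Rpl18 and Rpl37 had differences of -0.18 to -0.15.

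Ribosomal proteins that bind Mdm2 were taken as a group, since Trp53 defines the genotypes, which also differed in sex-linked genes and in cell type markers. In wild-type NSPCs 3 of the 14 listed genes were higher and none lower, where 13.8% of all genes were higher and 11.5% lower. In Trp53-/- NSPCs 5 were higher and none lower, where 12.9% and 10.7% of all genes were, and none was called without Trp53-/- replicate 2. None passed the test for a difference between the genotypes, at q or at unadjusted p below 0.05. Rpl5 had ratios of -0.15 and 0.07 in wild-type and of -0.01 and -0.09 in Trp53-/-. Rpl11, its partner in the 5S particle, had -0.12 and 0.13 in wild-type and 0.13 and -0.01 in Trp53-/-. Rpl23 lay higher, with 0.24 and 0.24 in wild-type (q = 0.0453) and 0.35 and 0.26 in Trp53-/- (q = 0.0207). The 3 kept probes of Rpl23 had wild-type means from 0.02 to 0.24. Rpl26, which also binds the Trp53 messenger, had means of 0.11 and 0.20 that did not pass. Over the same cells Mdm2 had ratios of 1.16 and 0.89 in wild-type and of 0.01 and -0.07 in Trp53-/-.

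The acidic stalk, which recruits the elongation factors, stayed close to 0. Means of Rplp0, Rplp1 and Rplp2 were -0.08, -0.06 and -0.06 in wild-type and 0.04, 0.01 and -0.10 in Trp53-/-, and none passed. Rpsa, which is also known as the laminin receptor, had -0.12 and -0.08. Rps6, the substrate of the S6 kinases, had 0.20 in wild-type (q = 0.0811) and 0.29 in Trp53-/- (q = 0.027). Rps27a, which is made as a fusion with ubiquitin, had 0.08 and -0.05, neither of which passed. Fau, the precursor of Rps30, had 0.03 and 0.10.

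Of the X-linked members Rpl10 had means of 0.08 and 0.07, Rpl36a of 0.12 and 0.06, Rpl39 of -0.00 and -0.14 and Rps4x of 0.02 and 0.10, in wild-type and Trp53-/- in turn. On Trp53-/- replicate 1 alone, without the array whose channels differed in sex-linked genes, they had 0.10, 0.14, -0.18 and 0.14. None was called with or without that array.

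Among the 15 listed genes of Diamond-Blackfan anaemia, an inherited failure of red cell production, 1 was higher in wild-type and 4 in Trp53-/-, with none lower. Of the 9 genes listed for the peptide exit tunnel and its surroundings 1 was higher in each genotype and none lower. Over all genes 13.8% were higher in wild-type and 12.9% in Trp53-/-. Without Trp53-/- replicate 2 no gene of either list was called in Trp53-/-. For the difference between genotypes no gene of either list had an unadjusted p below 0.05.

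Of 7 paralogs and fusion genes tested, 1 responded differently in the genotypes. Rps27l, a relative of Rps27 that is known as a p53 target, stood at 0.48 and 0.73 on the wild-type arrays (log2; mean 0.60 ± 0.100, SE; 1.52-fold, q = 0.00145) and at 0.01 and -0.18 on those of Trp53-/- NSPCs (mean -0.09). The arrays of the genotypes did not overlap, and the difference of 0.69 ± 0.141 (SE) passed the test (q = 0.0352), as 1.31% of all genes did in this direction. Rps27 had ratios above 0 in both genotypes, with a difference of 0.08 (95% interval -0.24 to 0.39). Without Trp53-/- replicate 2 the difference for Rps27l was 0.60 (q = 0.128), and without wild-type replicate 2 it was 0.56 (q = 0.0779), so that the call was lost in both cases.

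The 2 messengers were read by 60-base probes over different stretches, which are shown because the contrast of Rps27 with Rps27l rests on them. Over any overlap of at least 20 bases the probe of Rps27l had at most 47.4% identity to a probe of Rps27.
Rps27 probe A_55_P2163622: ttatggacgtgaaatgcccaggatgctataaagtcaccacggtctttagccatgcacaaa
Rps27l probe A_51_P246903: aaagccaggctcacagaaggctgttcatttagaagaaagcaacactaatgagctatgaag
This Rps27 probe had ratios of 0.38 and 0.61 in wild-type and of 0.40 and 0.41 in Trp53-/-. The files place all 4 Rps27 probes on chromosome 9, this one at 114891672 to 114891731 of the mm9 build, whereas RefSeq (GRCm38.p6) has Rps27 on chromosome 3 and a further gene, Rps27rt, on chromosome 9, so that the signal of the 2 copies cannot be told apart. In all 11 member probes, of Rps27, Rps29, Rpl13, Rpl36 and Rps4x, were placed on another chromosome than the gene.

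Rpl22l1, the paralog of the RNA-binding Rpl22, had 0.01 and 0.55 in wild-type and -0.14 and -0.31 in Trp53-/-. The genotypes did not overlap and the difference of 0.50 did not pass (q = 0.16). It was 0.42 (q = 0.424) without Trp53-/- replicate 2. Rpl22 itself had -0.32 and -0.06 against -0.10 and -0.18. Rpl36al and Rpl7l1 had means of 0.07 to 0.18 in both genotypes. Rps4l stood at 1.15 on Trp53-/- replicate 2 and between -0.38 and -0.19 on the other 3 arrays. Rpl39l, Rpl3l and Rpl10l did not pass the filter and have no value here.

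**Figure D3:**
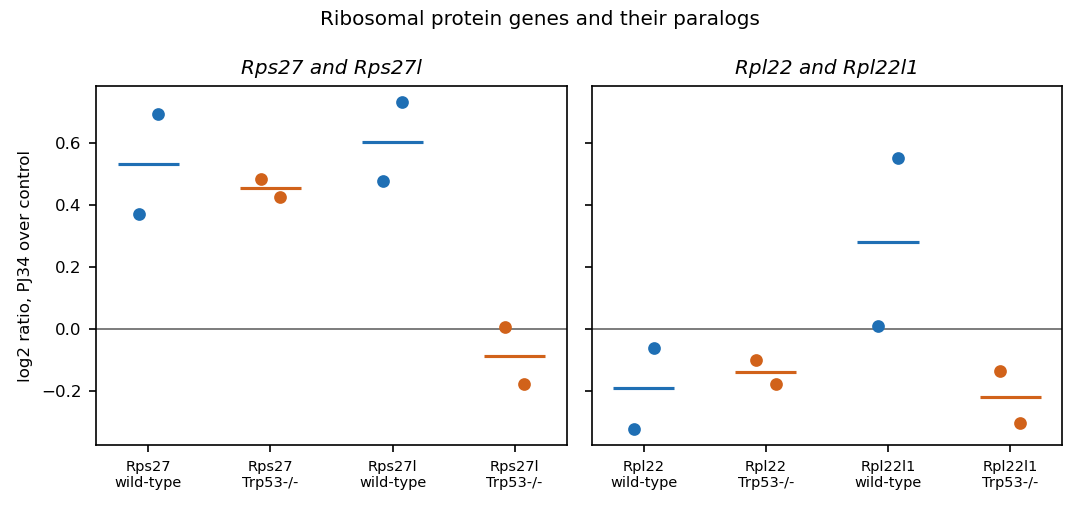
Log2 ratio of PJ34 over control on each array (points) with the mean of each genotype (bars, n = 2), for Rps27 with Rps27l and for Rpl22 with Rpl22l1. Rps27l stood at 0.48 and 0.73 in wild-type and at 0.01 and -0.18 in Trp53-/-, while Rps27 lay between 0.37 and 0.69 in both.

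Many factors that assemble the ribosome were lower with PJ34 in wild-type cells. Of 36 listed nucleolar assembly genes 16 were lower with PJ34 in wild-type NSPCs at q below 0.05 and 3 higher, where 11.5% of all genes were lower, and their median ratio was -0.23. In Trp53-/- NSPCs 2 were lower and 3 higher, with a median of 0.03, where 10.7% of all genes were lower and 12.9% higher. Without Trp53-/- replicate 2 none was lower and 1 higher, with a median of 0.06. Wdr12, of the complex that processes the large-subunit RNA, had -0.72 and -0.56 in wild-type (q = 0.000894) and was one of those lower in Trp53-/- too, with -0.37 and -0.58 (q = 0.00497). Gar1, of the pseudouridylation complex, had -0.73 and -0.48 in wild-type (q = 0.00133) and -0.16 and -0.32 in Trp53-/-. Nop58, which holds methylation guide RNAs, had -0.69 and -0.40 (q = 0.0026) against -0.11 and -0.27, and the methylase Fbl -0.29 and -0.41 (q = 0.0135) against -0.06 and 0.11. Pes1 was higher in both, with means of 0.33 and 0.50. Markers of cell types moved with PJ34 as well. Of the 10 NSPC markers 3 were higher and 3 lower in wild-type, and 2 higher and 3 lower in Trp53-/-, with median ratios of -0.12 and -0.21 on the wild-type arrays and of -0.12 and -0.17 on the Trp53-/- arrays. Of the 5 neuronal markers 2 were higher in wild-type and 1 in Trp53-/-. Of the 4 oligodendrocyte markers 1 was lower in wild-type and 3 in Trp53-/-. Of the 4 astrocyte markers none was called in wild-type, and 2 were higher and 1 lower in Trp53-/-. These Trp53-/- counts include replicate 2. Over all genes 13.8% were higher and 11.5% lower in wild-type, and 12.9% and 10.7% in Trp53-/-. On Trp53-/- replicates 1 and 2 the median ratios were 0.21 and 0.10 for neuronal, -0.43 and -0.23 for oligodendrocyte and -0.09 and 0.18 for astrocyte markers. The part of cell makeup in the ratios of the assembly genes was not tested.

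The difference between genotypes was below 0 for 32 of the 36 assembly genes, with a median of -0.22, and for 51.3% of all genes. None of the 36 passed q below 0.05, while 10 had an unadjusted p below 0.05, all of them lower in wild-type, where 7.08% of all genes were lower by that measure. These included Noc4l at -0.44 (q = 0.1), Mybbp1a at -0.43 (q = 0.11) and Rrp12 at -0.40 (q = 0.126). Without Trp53-/- replicate 2 the median was -0.28, against 0.00 over all genes, and fewer had an unadjusted p below 0.05. The list's wild-type median ratio was -0.18 without wild-type replicate 1 and -0.24 without wild-type replicate 2, and fewer were called lower in both fits. With the scanner's log ratios the count of 16 lower in wild-type became 3, where 5.36% of all genes were lower. With median centring it was 0 and 26 of the 36 were higher, where 67.7% of all genes were higher. The list's median was then 0.41 and that of all genes 0.47. In Trp53-/- all 36 were then higher, where 74.6% of all genes were.

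The following counts stand beside 13.8% of all genes higher and 11.5% lower in wild-type, and 12.9% and 10.7% in Trp53-/-. Of 14 RNA polymerase I genes 4 were lower and 3 higher in wild-type, and none lower and 3 higher in Trp53-/-. Ubtf, its upstream binding factor, was higher in both, with means of 0.68 (q = 0.000555) and 0.42 (q = 0.00728). Znrd1 was lower in wild-type at -0.55 (q = 0.00139). Of 17 elongation factors and other messengers with a TOP tract 1 was higher and 1 lower in wild-type, namely Tpt1 at 0.28 (q = 0.0272) and Eif4b at -0.35 (q = 0.0107), and 6 were higher in Trp53-/-. The 78 genes for mitochondrial ribosomal proteins had 8 higher and 8 lower in wild-type and 10 higher and 3 lower in Trp53-/-. Of 22 genes of Myc and mTOR control 8 were higher and 4 lower in wild-type, and 4 were higher and 3 lower in Trp53-/-. For the difference between genotypes 2 of the 22 were higher in wild-type, namely Ddit4 at 1.64 (q = 0.00422) and Sesn2 at 1.01 (q = 0.0146), which encode stress-induced inhibitors of mTOR signalling, where 1.31% of all genes were. Without Trp53-/- replicate 2 that count was 3. In Trp53-/- NSPCs without replicate 2, 1 polymerase I gene and 1 TOP messenger were higher and none lower, 1 mitochondrial gene was lower and none higher, and 1 gene of Myc and mTOR control was higher and 2 lower.

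**Figure D4:**
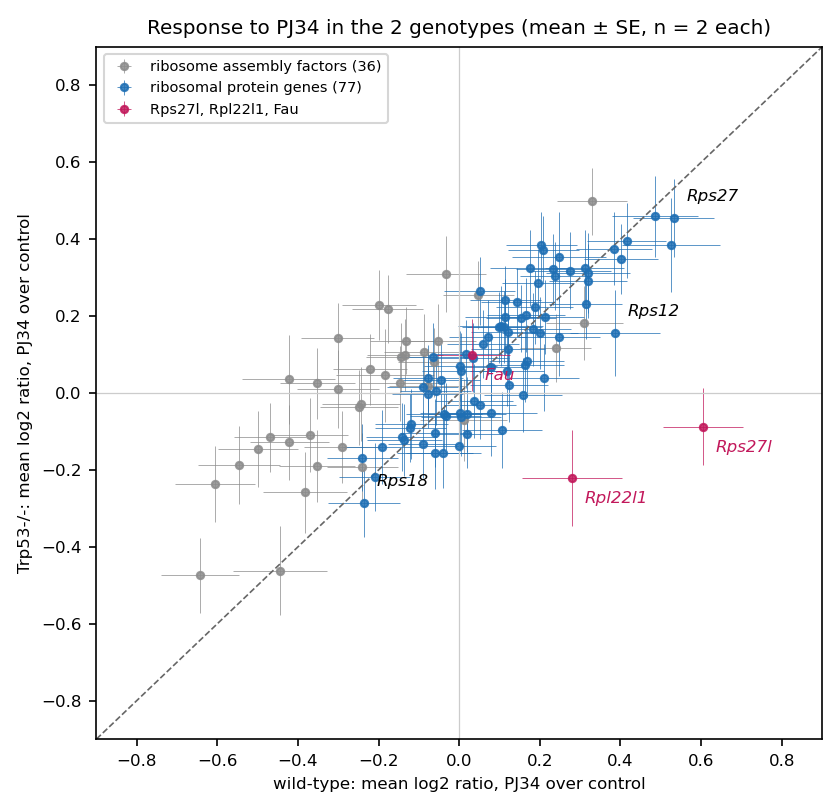
Mean log2 ratio of PJ34 over control in wild-type (x axis) against Trp53-/- NSPCs (y axis), with SE from the fit (n = 2 arrays each). The 77 ribosomal protein genes (blue) lie along the dashed line of equal response; 32 of 36 assembly factors (grey) lie above it, and of the red points Rps27l and Rpl22l1 lie below it and Fau near it.

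Untreated levels of ribosomal protein messengers were compared between genotypes on the Cy3 channel, as log2 intensity of the same probe on different arrays. No member passed the test. In limma 0 of 77 had q below 0.05, where 7.36% of all genes did (3.71% higher and 3.65% lower), and none met the study's criteria, which 3.86% of all genes met. At an unadjusted p below 0.05, 2 were lower in Trp53-/- and none higher, where 12.5% of all genes were lower and 10.7% higher. The median difference, Trp53-/- minus wild-type, was -0.03 over members and -0.00 over all genes. In bulk RNA fewer cells of a type and less RNA per cell cannot be told apart. Intervals were wider here than for the ratios, since only 32 of the 77 lay within 0.5 of 0 and 75 within 1.

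Rpl5 had log2 intensities of 15.10 and 14.82 in untreated wild-type and of 14.40 and 14.35 in untreated Trp53-/- NSPCs. The genotypes did not overlap; the difference was -0.59 (95% interval -1.03 to -0.15, q = 0.0752). Rps3, which also has a part in DNA repair, had 15.68 and 15.67 against 15.17 and 15.34, a difference of -0.42 (q = 0.117). Rps21 had the lowest mean difference at -0.69, but its arrays spread from 15.13 to 14.23 in wild-type and from 14.36 to 13.63 in Trp53-/- and overlapped. Rpl17 and Rpl7a followed at -0.43 and -0.33, and the highest were Rpl28 at 0.31, Rps13 at 0.27, Rpl38 at 0.25, Rpl3 at 0.20 and Rps29 at 0.18. With wild-type replicate 1 alone standing for wild-type 8 members were lower and 4 higher at q below 0.05, where 24.8% of all genes were lower and 24.6% higher. With replicate 2 alone 3 were lower and none higher, where 20.1% and 17.2% of all genes were. These shares of the members lay below those of all genes.

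**Figure D5:**
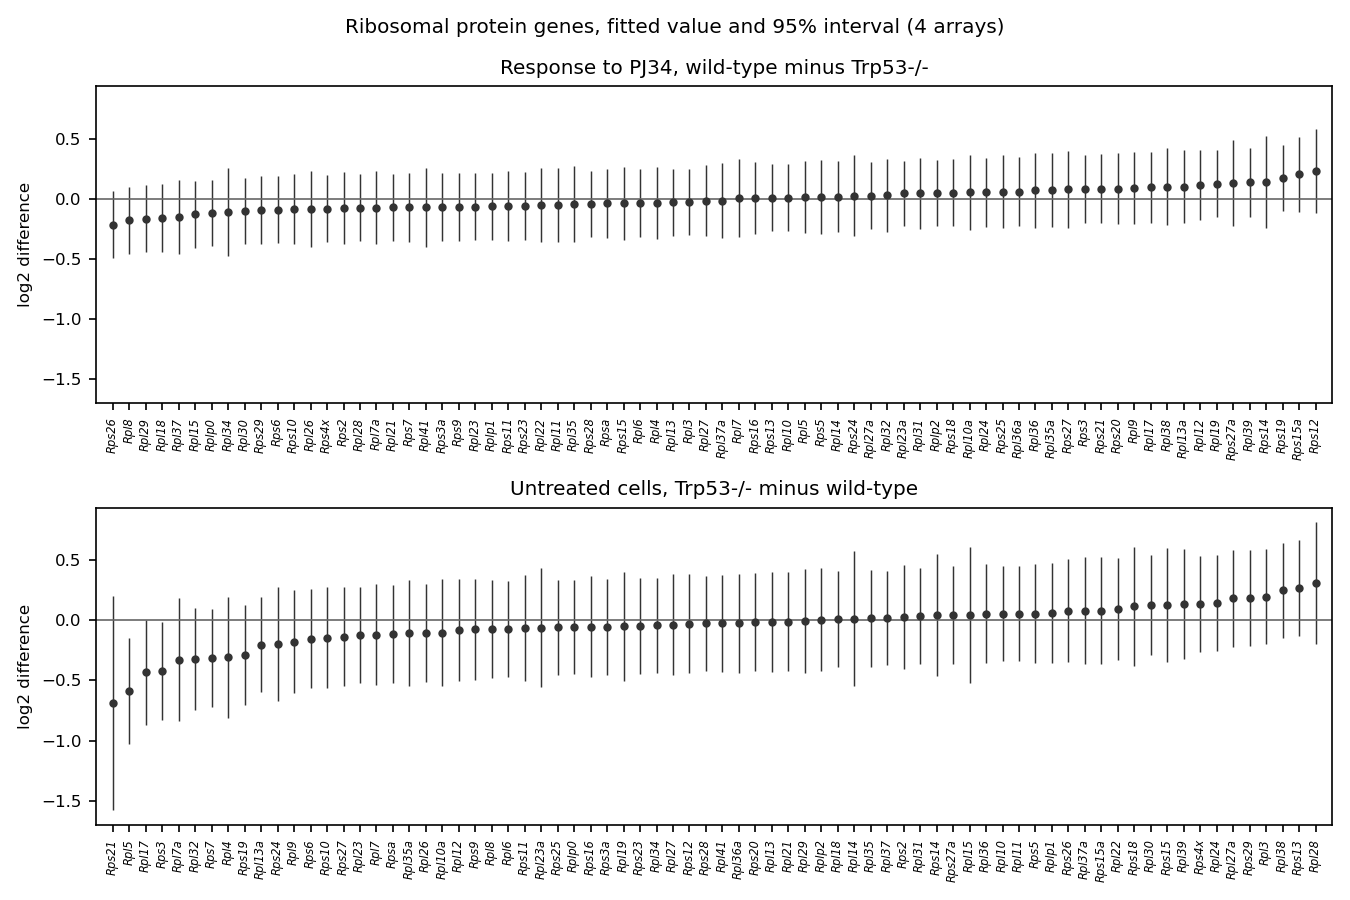
Fitted log2 difference and 95% interval of 74 of the 77 ribosomal protein genes, for the response to PJ34 (wild-type minus Trp53-/-, top) and for untreated cells (Trp53-/- minus wild-type, bottom). In the top panel all points lie between -0.22 and 0.23; in the bottom panel they lie between -0.69 and 0.31.

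The untreated cells differed in markers of other cell types. Of the 4 astrocyte markers 3 were higher in Trp53-/- and none lower, and the list's median log2 intensity was 7.42 and 7.64 in wild-type against 9.47 and 9.53 in Trp53-/-. Of the 4 oligodendrocyte markers 2 were higher, among them Mbp at 1.98 above wild-type, and the list's medians were 8.37 and 8.65 against 10.11 and 10.20. Of 5 neuronal markers 2 were higher. The 10 markers of NSPCs held 1 that was lower and none higher, with medians of 10.96 and 10.79 against 10.94 and 11.21. Only 1 of 4 microglial and 2 of 3 endothelial markers passed the filter. The untreated genotypes also differed in the Y-linked genes given above. The part of cell makeup and of sex in the untreated levels of ribosomal protein genes was not tested.

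Probes of one gene did not always give one answer. Of the 57 genes with several probes kept, the range between probes had a median of 0.15 for the wild-type ratio and was widest for Rpl31, at 0.70. The probe A_51_P452820 of Rpl31 had ratios of 0.47 and 0.71 in wild-type and of 0.53 and 0.42 in Trp53-/-, while its brightest probe had 0.10 and 0.30 and 0.10 and 0.21. In untreated cells 4 of the 179 probes were lower in Trp53-/- at q below 0.05, where 2.9% of all probes were, and none was higher. These were probe A_55_P1997895 of Rpl35a at -1.01 (q = 0.0249), 2 of the 7 probes of Rpl17, at -0.88 and -0.86, and probe A_55_P1993880 of Rps24 at -0.70 (q = 0.0484). The brightest probes of the same genes differed by -0.11 for Rpl35a, -0.43 for Rpl17 and -0.20 for Rps24, so that the difference was not shared by all probes of a gene. For Rpl17 all 7 probes had values below 0, from -0.88 to -0.30. Of the 181 member probes 36, in 28 genes, matched a probe with another name at all but 3 or fewer of at least 40 aligned bases, and for these the signal cannot be assigned to one copy.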

How the data were processed

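RNA of PJ34-treated and untreated NSPCs was compared on 4 two-colour arrays, 2 for each genotype. The authors deposited the scanner output of Agilent Feature Extraction 10.7.3.1, from which the mean and background signal intensity of each spot were taken. The deposited log10 ratios of the same software, converted to log2, and its processed intensity served as alternatives. A normalized table of the series with 4 sample columns that the labels do not tie to samples was not used.

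Backgrounds were corrected by normexp (offset 50) and dyes by loess within each array in limma 3.58.1 (R 4.3.3). Control spots and outlier flags were left out and replicate spots averaged. Probes stayed in where, for at least 1 genotype, the same channel was clearly brighter than background (the scanner software's flag) on its 2 arrays. Each gene was represented by its brightest kept probe. All 19637 genes entered 1 limma fit with a mean for each genotype, and q values were computed by Storey's method, with the proportion of true nulls smoothed over lambda from 0.05 to 0.95. Calls followed the study's criteria or q below 0.05 alone. Untreated levels used the Cy3 channel after Aquantile normalization, and these rest on single channels of different slides, so that slide and sample cannot be told apart. The number of arrays limits the precision. The script was tested on simulated data.

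Named were, for each comparison, up to 8 called genes in each direction or otherwise the 5 highest and lowest, with fixed additions (5S particle, stalk, Mdm2-binding, X-linked members, paralogs, Trp53, Cdkn1a and Mdm2). Genes of other lists were chosen after their values were seen. The members and lists were chosen with earlier results of these data known. Replicate numbers did not pair the arrays of the genotypes. Start sequences are from RefSeq (GRCm38.p6) and probes from the deposited files. The file of wild-type replicate 1 names 5453 spots otherwise than the other 3 files, which name them alike; a probe was a member where any of the 4 files named it so, and symbols were updated through RefSeq for 48.9% of probes. A few genes are counted in the lists but not reported here by name.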

Additional observations from a re-analysis of the deposited data

Results flagged for a closer look

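The response to PJ34 differed between genotypes, by the limma test of the difference itself, for 3 of the genes named. For Rps27l the wild-type response exceeded that of Trp53-/- by 0.69 on the log2 scale (q = 0.0352), for Cdkn1a by 2.14 (q = 0.000727) and for Mdm2 by 1.05 (q = 0.0054). The differences were 0.60, 2.02 and 1.01 without Trp53-/- replicate 2. Each was higher on both wild-type arrays than on both Trp53-/- arrays. The difference for Rps27l ran from 0.42 to 0.82 over the alternatives and had q above 0.05 in 6 of them, namely normexp offset 16 (0.127), no background correction (0.0603), median centring (0.65), the scanner's log ratios (0.263), without wild-type replicate 2 (0.0779) and without Trp53-/- replicate 2 (0.128).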

How the results depend on the processing

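The number of arrays limits these results, and counts of called genes moved most. Of 77 genes, 13 higher and 2 lower in wild-type became 77 and 0 with median centring and 0 and 0 with the scanner's log ratios. Of all genes 67.7% were then higher and 0.927% lower with median centring, and 6.4% higher and 5.36% lower with the scanner. The wild-type count lower was also 0 with normexp offset 16, no background correction, no filter, each genotype alone, the replicate block and Benjamini-Hochberg adjustment, and 1 with loess fitted without these probes and with the mean of probes. Over these alternatives 5.37% to 12.1% of all genes were lower. Both directions together gave 9 with Benjamini-Hochberg, where 9.66% of all genes were higher and 8.34% lower. In Trp53-/- 19 higher and 1 lower became 77 and 0, 0 and 0, and, with Benjamini-Hochberg, 11 and 0. In the same order 74.6%, 5.4% and 8.19% of all genes were higher and 0.952%, 3.36% and 7.31% lower. The count lower was 0 with offset 16 and the mean of probes and 2 with the strict filter. Of all genes 8.91%, 10.5% and 13.9% were lower there in turn. Median ratios were 0.93 and 0.010 in wild-type, and 1.28 and 0.030 in Trp53-/-, with median centring and the scanner in turn; in Trp53-/- they were 0.12 with offset 16 or no background correction and 0.11 with the mean of probes. The median difference was -0.34 with median centring. Untreated, 1 gene was lower under the replicate block, where 9.11% of all genes were, and the median was -0.13 with processed signals.

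Leaving out 1 array gave 0 to 14 genes higher, 0 lower and 0 to 14 in all in wild-type, with a median of 0.03 to 0.15. It gave 0 to 20 higher, 0 to 1 lower and 0 to 21 in all in Trp53-/-, with a median of 0.075 to 0.100. It gave 0 to 4 higher, 0 to 8 lower and 0 to 12 in all untreated, with a median of -0.06 to 0.01, and a median difference of -0.07 to 0.08 with 0 called. A lone array was taken to vary like those of the other genotype.

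Same-numbered arrays deviated oppositely across all genes (r = -0.18). A crossed pairing, chosen after seeing the data, called 720 genes higher and 414 lower for the difference. It called 2 members lower in Trp53-/-, where 14.3% of all genes were. With the replicate block 381 and 160 were called, against 258 and 94.

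Median centring moved the median of all genes to 0.47 in wild-type and 0.64 in Trp53-/-, and put all 77 members above 0 in both. Members below 0 therefore all turned by construction. Among the genes named, values that turned were, in wild-type, Rpl21 (0.54), Rps18 (0.57), Rps13 (0.62), Rpl22 (0.61), Rpl3 (0.69), Rpl5 (0.74), Rplp0 (0.80), Rplp1 (0.79), Rplp2 (0.80), Rpsa (0.75) and Rpl39 (0.82). In Trp53-/- they were Rps18 (0.84), Rps13 (0.96), Rpl21 (0.92), Rpl12 (1.02), Rpl17 (0.96), Rpl5 (1.00), Rplp2 (1.11), Rpsa (1.14), Rps27a (1.16), Rpl22 (0.99), Rpl39 (1.01), Rps27l (1.00), Rpl22l1 (0.85), Cdkn1a (0.065) and Mdm2 (0.85). The wild-type value of Rpl21 turned to 0.095 with the mean of probes. Of single-gene values over all alternatives 2244 kept their side of the threshold, 117 lost the call, 64 gained it and 27 turned with a call in either fit. Values that changed sign without a call in either fit are among the 2244.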
